A study of Homo sapiens with 30 samples.

Results

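UBE2C and UBE2S encode 2 ubiquitin-conjugating enzymes (E2s) that build ubiquitin chains for the same mitotic ligase, and they are 2 of the 60664 genes counted in each library. They were chosen from readings of these data: UBE2C was close to absent in K562 cells given the DMSO vehicle, was present after a DNMT1 inhibitor, and was set against its level in HCT116 cells and against UBE2S as its partner. Both genes were matched by Ensembl identifier, UBE2C as ENSG00000175063 (hg38 chr20:45812576-45816957, + strand) and UBE2S as ENSG00000108106 (hg38 chr19:55399745-55407788, - strand). Since the K562 and HCT116 DMSO levels and the K562 response chose the genes, those values are given as a description with no test.

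The anaphase-promoting complex, or cyclosome (APC/C), is the ubiquitin ligase that ends mitosis by marking cyclins, securin and other mitotic proteins for the proteasome. UBE2C (UbcH10) places the first ubiquitins on its substrates and UBE2S extends the chain on them, while the coactivators CDC20 and FZR1 (CDH1) bring the substrates in. Both E2 genes are known as cell cycle genes that are transcribed most strongly around G2 and mitosis. DNMT1 copies CpG methylation onto the new DNA strand after replication, and methylation of a CpG-rich promoter is a known mark of genes that stay silent.

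Poly(A)-selected RNA was sequenced from 30 libraries in 10 groups of 3, each library from a separate culture. Wild-type K562 cells (a chronic myeloid leukaemia line) and wild-type HCT116 cells (a colorectal carcinoma line) were cultured for 3 days with the DNMT1 inhibitor (DNMT1i) at 10 µM or with DMSO at 0.1%. The speckle line is a K562 clone in which the endogenous speckle scaffold proteins SON and SRRM2 both carry a dTAG degron; it received 500 nM dTAG-13, which degrades both proteins, or 0.1% DMSO for 6 hours, and no DNMT1i. The HT-CTCF line is an HCT116 knock-in in which CTCF carries a HaloTag; over 1 day it received DNMT1i at 10 µM or DMSO at 0.1%. In both arms some cultures also received HaloPROTAC3, which degrades HaloTag fusions; per the study's methods it was started hours before the DNMT1i or DMSO and kept on with them. The inhibitor and both degraders act on proteins, so the transcript of the target is no check of them. Exon bins were counted in the 18 wild-type and speckle libraries and not in HT-CTCF. Line or clone and treatment time differ between these experiments, so levels of different experiments are set side by side and were not compared by a test.

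A library held between 16606855 and 20924381 assigned reads in wild-type K562, between 17074791 and 21228534 in HCT116, between 16173008 and 20625817 in the speckle line and between 4243092 and 9407430 in HT-CTCF. Of 8 erythroid and haematopoietic markers, 7 were at 1 CPM (reads of the gene per 1000000 assigned reads) or more in both groups of wild-type K562 and of the speckle line, and 2 or 3 in HCT116 and HT-CTCF. Of 9 colon epithelial markers, 8 reached 1 CPM in every HCT116 and HT-CTCF group, against 4 in K562 DMSO and 6 in K562 DNMT1i. The embryonic globin gene HBE1 (at most 0.447 CPM in K562 and speckle groups) and the villin gene VIL1 (at most 0.411 CPM in wild-type HCT116) were the defining markers close to 0 in their own line.

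Promoter sequences were looked up for UBE2C, UBE2S and the 4 genes that met the same on-off rule as UBE2C (below: KCNK6, MAP3K13, MEST and SPINT2). RefSeq (GRCh38.p14) entries matched 4 of these 6 genes, and UBE2C and SPINT2 were not among them. The 3 printed runs are the 250 bases before the start of transcription, read 5′ to 3′ on the strand of the gene, with each CG dinucleotide, the site that DNMT1 maintains, in capitals. They are shown so that the CpG content of a partner that did not switch (UBE2S, chr19:55407789-55408038, - strand) can be read beside that of genes that did (KCNK6, chr19:38319595-38319844, + strand, and MAP3K13, chr3:185282711-185282960, + strand).
UBE2S: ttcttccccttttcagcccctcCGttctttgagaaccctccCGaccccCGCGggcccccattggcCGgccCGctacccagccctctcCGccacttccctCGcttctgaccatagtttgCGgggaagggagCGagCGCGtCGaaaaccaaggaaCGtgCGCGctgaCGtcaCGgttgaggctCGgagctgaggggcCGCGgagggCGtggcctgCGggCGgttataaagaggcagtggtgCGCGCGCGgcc
KCNK6: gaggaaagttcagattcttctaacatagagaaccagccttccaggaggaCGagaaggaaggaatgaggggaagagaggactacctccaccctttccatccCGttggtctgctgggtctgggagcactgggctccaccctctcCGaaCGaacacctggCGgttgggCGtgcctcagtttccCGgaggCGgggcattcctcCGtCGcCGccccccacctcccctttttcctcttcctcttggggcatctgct
MAP3K13: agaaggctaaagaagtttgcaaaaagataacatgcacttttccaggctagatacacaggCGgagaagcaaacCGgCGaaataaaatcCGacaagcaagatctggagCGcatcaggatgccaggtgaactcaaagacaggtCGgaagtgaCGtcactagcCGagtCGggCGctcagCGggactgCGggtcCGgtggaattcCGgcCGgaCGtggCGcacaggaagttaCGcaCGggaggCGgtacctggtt

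These 250 bases hold 28 CG in UBE2S, 11 in KCNK6 and 20 in MAP3K13. Over the whole 300 base window, which adds 50 bases after the start, UBE2S had 35 CG, more than 85.9% of the 35116 RefSeq promoters, whose median was 14 (quartiles 4 and 28). MAP3K13 had 24 CG, more than 66.1% of promoters, KCNK6 had 16, more than 52.5%, and the 5 listed promoters of MEST held from 13 to 25. The partner that was on in every group therefore had the most CG-rich window of the 4 genes. Motifs known from cell cycle promoters were searched on both strands of the same windows. CCAAT, the NF-Y box, is in 34.6% of all promoters and was found in UBE2S, on the opposite strand with its first base at position -191, and in MEST. The cell cycle homology region (TTTGAA or TTCGAA) is in 16.4% of promoters and was found in MEST as TTTGAA, and the E2F letters (TTTGGCGC or TTTCGCGC) are in 1.15% and were in none of the 4 genes. These are matches of letters in a window; methylation was not measured in the files used here.

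In wild-type K562 cells UBE2C went from at most 9 reads a library to at least 523. The 3 DMSO libraries held 9, 5 and 1 UBE2C reads, or 0.430, 0.293 and 0.0602 CPM (mean 0.261 ± 0.187, SD, n = 3). The 3 DNMT1i libraries held 558, 525 and 523 reads, or 28.5, 31.1 and 26.6 CPM (28.7 ± 2.24). The lowest treated library stood far above the highest control, and the groups did not overlap. The ratio of the means was 110, and the log2 fold change fitted by edgeR was 6.64 ± 0.25 (SE). Pooled over the 3 libraries, the DMSO cells gave 15 reads of 54592066, or 0.275 CPM with an exact Poisson 95% interval of 0.154 to 0.453, which covers counting error only. The ratio of the pooled CPM was 104.1 with an exact 95% counting interval of 62.9 to 186.5. Leaving out 1 K562 DMSO library moved the fitted log2 value between 6.23 (without replicate 3, the library with 1 read) and 7.23 (without replicate 1, the library with 9). In bulk RNA, fewer cells with the transcript and less transcript per cell cannot be told apart, in either group.

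UBE2S, the chain-extending partner, was on in the same libraries before and after treatment. It measured 33.6, 33.2 and 44.02 CPM in K562 DMSO (37.0 ± 6.13) and 38.0, 46.5 and 37.6 CPM in K562 DNMT1i (40.7 ± 5.02). The groups overlapped, and the fitted log2 fold change was 0.10 ± 0.14 (SE). The ratio of UBE2C reads to UBE2S reads within each library, which does not depend on depth, was between 0.00137 and 0.0128 in the K562 DMSO libraries and between 0.668 and 0.750 after DNMT1i.

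HCT116 cells expressed both enzymes in either condition. UBE2C measured 79.5, 74.0 and 75.1 CPM in HCT116 DMSO (76.2 ± 2.92, SD, n = 3), 292 times the K562 DMSO mean, with a fitted log2 difference of K562 from HCT116 of -8.11 ± 0.22 (SE). After DNMT1i, K562 reached 37.7% of the HCT116 DMSO level and 43.6% of the HCT116 DNMT1i level. UBE2S measured 44.5, 40.6 and 44.3 CPM in HCT116 DMSO (43.2 ± 2.17), a log2 difference of K562 from HCT116 of -0.25 ± 0.13 (SE). HCT116 libraries held from 1.70 to 1.82 UBE2C reads per UBE2S read in DMSO, and K562 DNMT1i cells, with UBE2S at 94.4% of the HCT116 DMSO mean, held fewer. Per kilobase of all annotated exon bases (1286 in UBE2C, 2799 in UBE2S), K562 DNMT1i held 22.3 ± 1.74 CPM of UBE2C and 14.6 ± 1.79 of UBE2S. HCT116 DMSO held 59.3 ± 2.27 and 15.4 ± 0.78. Much of the annotated UBE2S length drew few reads: an exon bin of 1834 bases took 3.97% of its bin counts in K562 DNMT1i. The order of the 2 genes is therefore not read from this scale.

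**Figure D1:**
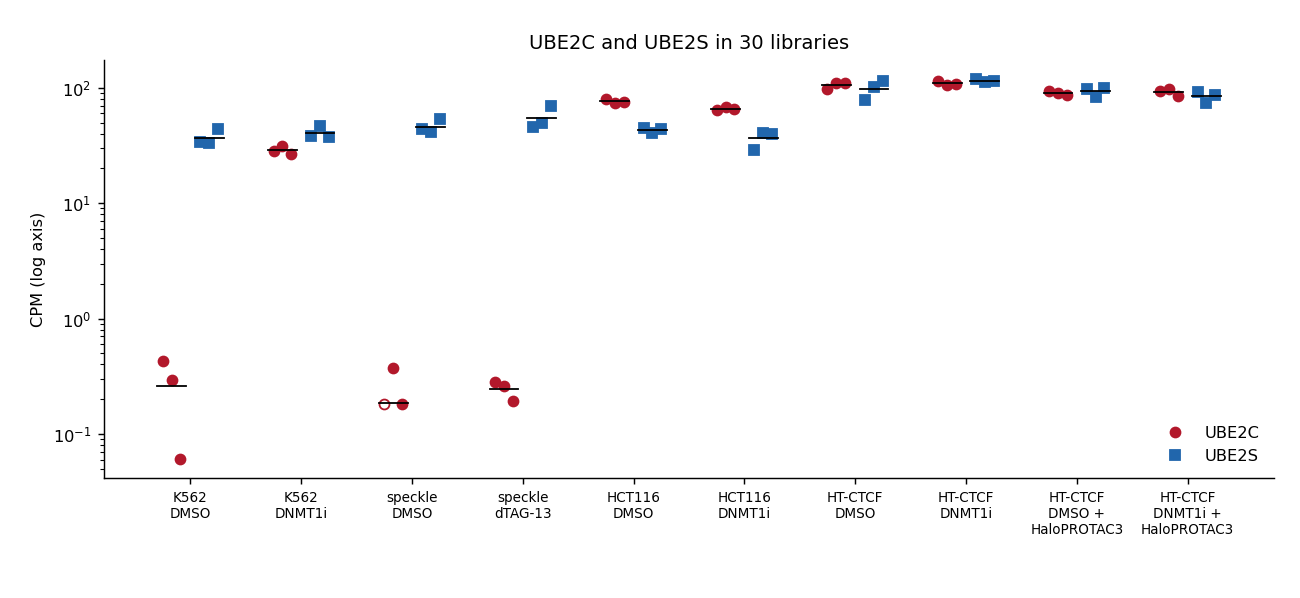
UBE2C and UBE2S in each of the 30 libraries, as CPM on a log axis, by group; points are libraries, horizontal lines are means of 3, and the open circle is the library with 0 UBE2C reads, drawn at the 0.183 CPM that 3 reads would give. Without DNMT1i the K562-derived libraries sit at or below 0.430 CPM for UBE2C and every other library at or above 26.6 CPM, while UBE2S stays between 29.0 and 120 CPM.

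In HCT116 itself both genes had slightly lower means with DNMT1i. UBE2C measured 64.0, 67.7 and 65.9 CPM with DNMT1i (65.9 ± 1.86), below all 3 DMSO libraries, a fitted log2 fold change of -0.32 ± 0.07 (SE). UBE2S measured 29.0, 40.9 and 39.6 CPM with DNMT1i (36.5 ± 6.53), a fitted log2 fold change of -0.35 ± 0.10 (SE), with 1 DNMT1i library (40.9 CPM) above the lowest DMSO library (40.6 CPM). No test of either value is reported, since they rest on the HCT116 DMSO levels that chose the genes. Of 15885 genes tested in HCT116 by edgeR's quasi-likelihood test with Benjamini-Hochberg adjustment, 33.8% rose and 27.9% fell. The response to DNMT1i had opposite signs in the lines for UBE2C, with a fitted difference (K562 minus HCT116) of 6.96 ± 0.23 (SE) for UBE2C and 0.45 ± 0.18 for UBE2S; neither difference was tested, since the K562 response chose the genes.

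The K562 clone with degron-tagged speckle proteins gave a second look at the silent state. The choice of genes had all 30 libraries at hand, so the UBE2C values of this clone are a description too. Its DMSO libraries held 0, 6 and 3 UBE2C reads, or 0, 0.371 and 0.181 CPM, where 3 reads in the library at 0 would be 0.183 CPM. The dTAG-13 libraries held 5, 5 and 4 reads, or 0.282, 0.263 and 0.194 CPM. The ranges of both groups overlapped each other and that of wild-type K562 DMSO. Over all 6 libraries there were 23 UBE2C reads in 106505095, or 0.216 CPM with an exact Poisson 95% interval of 0.137 to 0.324, and a change with speckle degradation was not detectable at this depth and was not tested, since UBE2C did not pass the filter on low counts. UBE2S measured 43.7, 41.1 and 53.6 CPM in speckle DMSO and 46.1, 49.1 and 69.0 CPM with dTAG-13. The groups overlapped, and the log2 fold change of 0.25 ± 0.16 (SE) did not pass (edgeR adjusted p = 0.417), in a comparison where 4.67% of genes did. With the replicate number as a block UBE2S passed (0.24 ± 0.06, edgeR adjusted p = 0.00671); same-numbered speckle libraries deviated together.

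The HT-CTCF line, with 1 day of DNMT1i, had the highest levels of both genes. UBE2C measured 97.6, 110 and 109 CPM in DMSO and 114, 107 and 108 CPM in DNMT1i without HaloPROTAC3. These overlapped, and the log2 fold change was 0.06 ± 0.08 (SE) with a 95% interval from -0.09 to 0.21 (edgeR adjusted p = 0.762), in a comparison in which 2.48% of genes passed. With HaloPROTAC3, UBE2C measured 94.6, 89.7 and 86.7 CPM in DMSO and 94.4, 97.2 and 84.9 CPM in DNMT1i, a log2 fold change of 0.06 (edgeR adjusted p = 0.702), where 5.41% of genes passed. UBE2S did not pass in either comparison either, at 0.24 ± 0.10 without HaloPROTAC3 (edgeR adjusted p = 0.258) and -0.10 ± 0.10 with it (edgeR adjusted p = 0.640). The interaction of DNMT1i and HaloPROTAC3, which 0.268% of genes passed, was 0.00 ± 0.11 for UBE2C (edgeR adjusted p = 0.995) and -0.34 ± 0.15 for UBE2S (edgeR adjusted p = 0.299).

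With HaloPROTAC3 all 3 libraries were below all 3 without it for UBE2C, in DMSO and in DNMT1i, and neither difference passed the test. The log2 fold change of UBE2C with HaloPROTAC3 was -0.16 ± 0.08 (SE) in DMSO (edgeR adjusted p = 0.156, 17.3% of genes passed) and -0.16 ± 0.08 in DNMT1i (edgeR adjusted p = 0.152, 22.4% passed). UBE2S measured 120, 111 and 114 CPM in DNMT1i without HaloPROTAC3 and 91.8, 74.6 and 85.9 CPM with it. This was a fall of 0.35 on the log2 scale (SE 0.10, edgeR adjusted p = 0.0148), in groups that did not overlap. The call was lost without replicate 2 of DNMT1i with HaloPROTAC3 (edgeR adjusted p = 0.0922) and without replicate 1 of DNMT1i without it (0.0748). In DMSO the UBE2S difference was -0.01 ± 0.10 (edgeR adjusted p = 0.953), and the libraries spread from 77.7 to 115 CPM without HaloPROTAC3.

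Put in order, the group means of UBE2C fell into 3 tiers. The 4 HT-CTCF groups (90.3 to 110 CPM) came first, then HCT116 DMSO, HCT116 DNMT1i and K562 DNMT1i, each below the one before with no overlap of libraries. K562 DMSO, speckle dTAG-13 and speckle DMSO formed the last tier, overlapping one another. Within HT-CTCF, the pairs of groups that differed only by DNMT1i overlapped. UBE2S had no such tiers outside HT-CTCF: the 6 wild-type and speckle groups (36.5 to 54.8 CPM) overlapped each neighbour in the order.

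The exon bins show which parts of UBE2C the reads of treated K562 cells covered, beside HCT116. UBE2C has 17 bins, none shared with bins of another gene. In K562 DMSO they held 29 counts in all, 4 of them in the first 5 bins, and 6 bins had none. Speckle DMSO held 8 of 20 counts in the first 5 bins and speckle dTAG-13 4 of 30. No profile is read from counts this few. In K562 DNMT1i the UBE2C bins held 4000 counts, of which 19.9% lay in the first 5 bins, against 20.5% of 9637 in HCT116 DNMT1i and 17.7% of 10082 in HCT116 DMSO. The bin with most reads, bin 12 (205 bases), took 25.8 ± 1.90% of the UBE2C bin counts in K562 DNMT1i (SD, n = 3), 25.04 ± 0.54% in HCT116 DNMT1i and 26.97 ± 0.97% in HCT116 DMSO. The shares of K562 DNMT1i and HCT116 DNMT1i differed by less than the spread between libraries.

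No UBE2C bin passed the test of use between K562 DNMT1i and HCT116 DNMT1i. Of 12 bins tested by edgeR (diffSpliceDGE), 0 passed, with log2 differences in use from -0.21 to 0.49, a smallest adjusted p of 0.807 and 0 bins at an unadjusted p under 0.05, in a test that 3.31% of all bins passed; limma (diffSplice after voom) called 0 of them. In HCT116 with and without DNMT1i, 0 of 13 UBE2C bins passed (smallest edgeR adjusted p = 0.502, 2 at an unadjusted p under 0.05), where 0.846% of all bins did, and limma called 0. UBE2S differed between the lines in 1 of 9 bins. Bin 5, of 84 bases (chr19:55404061-55404144), held 3, 3 and 2 reads in the K562 DNMT1i libraries and 23, 24 and 21 in the HCT116 DNMT1i libraries, which did not overlap; this was a log2 difference in use of -3.14 (edgeR adjusted p = 0.00074). The bin was little used in any line, at 0.150 ± 0.030% of UBE2S bin counts in K562 DNMT1i (SD, n = 3) and 1.41 ± 0.40% in HCT116 DNMT1i. It was also low without DNMT1i, with 0.256% in K562 DMSO and 1.08% in HCT116 DMSO. No UBE2S bin passed between HCT116 DNMT1i and DMSO (0 of 10 by edgeR, 0 at an unadjusted p under 0.05, 0 by limma) or between speckle dTAG-13 and DMSO (0 of 8, 0 unadjusted, 0 by limma, where 0.132% of all bins passed).

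**Figure D2:**
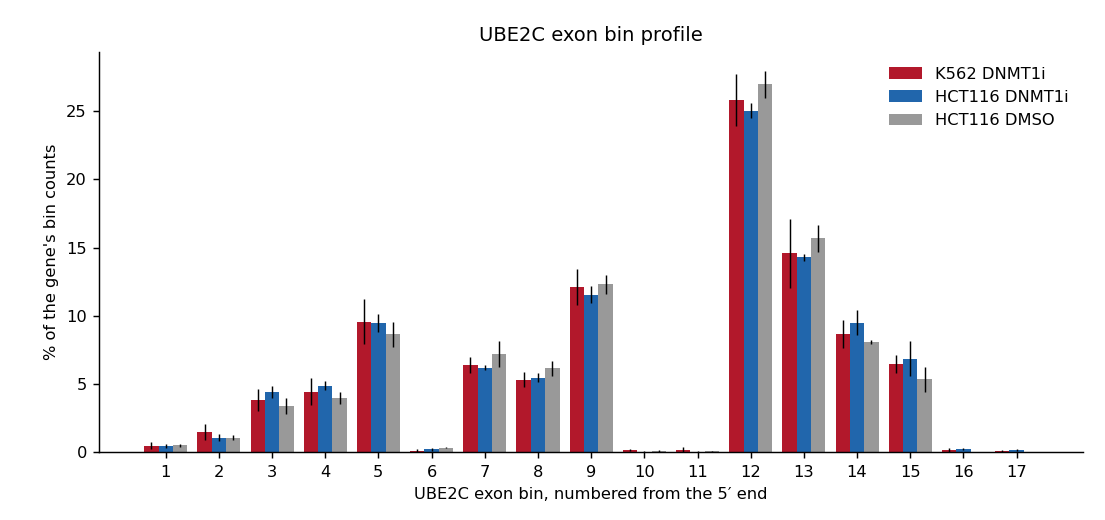
Share of the UBE2C bin counts (percent) in each of the 17 exon bins, numbered from the 5′ end; bars are means and error bars SDs of 3 libraries, for K562 DNMT1i, HCT116 DNMT1i and HCT116 DMSO. Bin 12 is highest in each, at 25.8%, 25.04% and 26.97%.

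Other members of the gene family were checked for reads that could belong to UBE2C. Processed pseudogenes UBE2CP1, UBE2CP2, UBE2CP3 and UBE2CP4 held from 0 to 17 reads per group of 3 libraries. UBE2CP5, a transcribed copy, had 2.76 CPM in K562 DMSO and 2.86 CPM in K562 DNMT1i (edgeR adjusted p = 0.993), and 1.38 CPM in both HCT116 groups. UBE2SP1 ran from 2.49 to 7.41 CPM and UBE2SP2 from 0.278 to 1.66 CPM over the 10 groups. Reads that align to more than 1 place were tallied as a class of their own, from 8.5% to 16.9% of a library. Whether any of them were also counted for UBE2C or a copy was not given in the sources used.

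The switch of UBE2C was not shared by the genes around it. Of 16 genes within 100 kb, 7 reached a mean of 1 CPM in any group. DNTTIP1, whose annotated end is 1149 bases before the start of UBE2C and which encodes a subunit of a histone deacetylase complex, measured 26.8 CPM in K562 DMSO and 30.6 CPM in K562 DNMT1i (edgeR adjusted p = 0.576), against 41.0 CPM in HCT116 DMSO. It was thus on in K562 while UBE2C, next to it on the same strand, was not. SNX21, a sorting nexin gene 16842 bases after UBE2C, was low in K562 (0.596 CPM, and 1.16 CPM with DNMT1i; edgeR adjusted p = 0.144) and at 5.70 CPM in HCT116 DMSO. PLTP, which encodes phospholipid transfer protein and lies 81664 bases after UBE2C, was the 1 neighbour that rose in K562, from 19.8 ± 1.80 to 39.3 ± 1.61 CPM (SD, n = 3; log2 fold change 0.95 ± 0.11, SE, edgeR adjusted p = 0.000213), in a comparison in which 6.47% of genes rose and 2.38% fell. It rose in HCT116 as well, from 3.32 to 6.17 CPM (0.79 ± 0.16, edgeR adjusted p = 0.000215). The other 4 (ACOT8, ZSWIM3, ZSWIM1 and CTSA) were on in K562 DMSO at 3.08 to 32.99 CPM and did not pass in K562.

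Around UBE2S, 11 of 17 genes within 100 kb reached 1 CPM. RPL28, a ribosomal protein gene on the opposite strand whose annotated span overlaps that of UBE2S but shares no exon bin with it, was at 1131 CPM in K562 DMSO and 1269 CPM in K562 DNMT1i. Of the 11, 8 passed the filter on low counts in K562, and TMEM150B was the 1 of these 8 that rose, from 0.297 to 1.16 CPM (log2 fold change 1.84, edgeR adjusted p = 0.0122); the call was lost without replicate 1 or replicate 2 of K562 DNMT1i (edgeR adjusted p = 0.0606 and 0.0502).

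**Figure D3:**
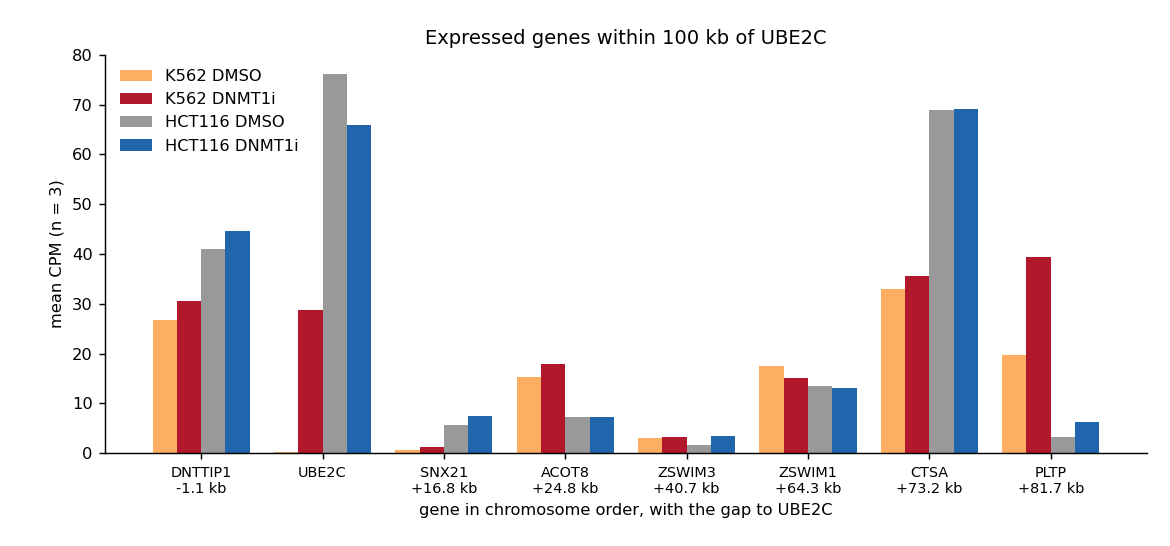
Mean CPM (bars, n = 3) of UBE2C and the 7 genes within 100 kb of it that reach 1 CPM in any group, in chromosome order with the gap to UBE2C in kilobases, for K562 and HCT116 with DMSO or DNMT1i. In K562 the DMSO bar of UBE2C (0.261 CPM) is close to 0 and the DNMT1i bar stands at 28.7 CPM, while DNTTIP1 next to it has both bars.

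The same on-off pattern was looked for across all genes, with UBE2C as the model. In K562 DMSO, 48097 genes were below 1 CPM in all 3 libraries. Of these, 32 reached 10 CPM or more in all 3 K562 DNMT1i libraries, 0.0527% of the 60664 genes. Most of the 32 were off in HCT116 too: 24 were below 1 CPM in all HCT116 DMSO libraries, and 5 (0.00824% of all genes) were at 10 CPM or more in all 3 HCT116 DMSO libraries. UBE2C is 1 of these 5, and the thresholds used the same contrast, so the values below are a description.

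The other 4 were MAP3K13, KCNK6, MEST and SPINT2. MAP3K13, a kinase of the JNK pathway, measured 0.300 CPM in K562 DMSO, 17.8 CPM in K562 DNMT1i and 25.8 CPM in HCT116 DMSO. KCNK6, a potassium channel gene, measured 0.123, 14.9 and 15.2 CPM in the same groups. MEST, an imprinted gene, measured 0.259, 20.5 and 40.2 CPM. SPINT2, which encodes a serine protease inhibitor, measured 0.734, 29.4 and 123 CPM. It lies near KCNK6 on chromosome 19, with spans of 38244035 to 38292615 (SPINT2) and 38319845 to 38332076 (KCNK6). In speckle DMSO, 4 of the 5 were below 1 CPM in all 3 libraries, and the exception, SPINT2, had a mean of 1.02 CPM. UBE2C and SPINT2 were thus the genes of the 5 with the highest HCT116 levels and with K562 DNMT1i levels furthest below them.

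Likeness in pattern was also measured over the means of all 10 groups, as Pearson's r on log2(CPM + 0.5) among 10981 genes that reach 10 CPM in a group. The 6 genes most like UBE2C were SPINT2 (r = 0.994), ZNF302 (0.994), CILP2 (0.993), KRTCAP3 (0.992), GPAT2 (0.991) and TTC39A (0.989). ZNF302, a zinc finger gene, was listed at 0 in K562 DMSO, with 3.19 CPM after DNMT1i and 7.56 CPM in HCT116 DMSO. None of the 6 is in the lists of APC/C, mitotic or S phase genes. UBE2S ranked 3538 with r = 0.514. The genes most like UBE2S were CARS2 (0.977), AP1S1 (0.977), PSMC1 (0.9748), LMNB2 (0.973), PGAM1 (0.973) and DDX12B (0.972). The 10 points of such a correlation share cell lines and clones, so they are not independent.

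The 14 listed APC/C core subunits were all on in K562 DMSO, the lowest at 5.23 CPM (CDC26), as were CDC20 and FZR1. In the other APC/C lists, USP44 (0.185 CPM, coactivators and enzymes) and MAD1L1 (0.131 CPM, inhibitor and checkpoint genes) were below 1 CPM. Of 14 APC/C core subunits, 5 were higher and 2 lower in K562 DMSO than in HCT116 DMSO, and 7 did not pass, in a comparison in which 38.1% of genes were higher and 41.2% lower. ANAPC2, the cullin subunit, was lower (6.89 against 17.8 CPM, log2 -1.39, edgeR adjusted p = 2.16e-06), and CDC23 and ANAPC10 were higher (0.80 and 1.08). Of the 7 coactivators and enzymes tested, 1 was higher and 2 lower, beside the same shares of all genes. Neither substrate-binding coactivator passed: CDC20 measured 130 ± 6.68 CPM in K562 and 121 ± 7.79 CPM in HCT116 (log2 0.08 ± 0.09, 95% interval -0.10 to 0.26, edgeR adjusted p = 0.424) and FZR1 27.7 ± 3.82 and 31.0 ± 3.87 CPM (-0.18 ± 0.13, edgeR adjusted p = 0.207). Without replicate 3 of K562 DMSO, FZR1 was lower in K562 (-0.29, edgeR adjusted p = 0.00971), and 8 core subunits were higher and 3 lower.

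The listed inhibitor and spindle checkpoint genes and the substrate genes of the APC/C were mostly higher in transcript in K562 DMSO. The first list, elsewhere called inhibitors for short, also holds kinetochore genes such as NDC80, so not every member restrains the APC/C. Of 11 inhibitor and spindle checkpoint genes tested, 10 were higher and 1 lower, beside 38.1% and 41.2% of all genes. Their median log2 difference was 1.099, against -0.04 for all genes. NDC80, a kinetochore subunit, measured 199 ± 29.4 CPM in K562 and 56.7 ± 5.68 CPM in HCT116 (1.78 ± 0.12, SE, edgeR adjusted p = 1.24e-08). Of 27 substrate genes, 18 were higher and 4 lower (median 0.58), beside the same shares of all genes. CCNA2 (cyclin A2) measured 384 ± 42.0 and 95.6 ± 5.97 CPM (1.98 ± 0.10, edgeR adjusted p = 7.18e-10), and GMNN, the replication licensing inhibitor geminin, was 1.69 higher on the log2 scale. CCNB1 (cyclin B1) measured 280 ± 22.0 and 224 ± 17.3 CPM, a difference of 0.30 ± 0.09 (SE, edgeR adjusted p = 0.00945) whose call was lost without replicate 3 of HCT116 DMSO (0.0576).

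Further lists, of other mitotic genes and of S phase genes, were compared in the same DMSO libraries. Of 26 other mitotic genes tested, 14 were higher and 7 lower in K562, beside 38.1% and 41.2% of all genes. FOXM1, a transcription factor of G2 and M phase genes, was lower (64.9 ± 7.95 against 93.7 ± 6.41 CPM, log2 -0.55 ± 0.11, edgeR adjusted p = 0.00046), as was the phosphatase gene CDC25B (-1.66), while ASPM (1.93) and KIF2C (1.48) were higher. Of 20 S phase genes, 15 were higher and 0 lower. DESeq2 also called 0 S phase genes lower, and 0 were lower at an unadjusted p under 0.05, though without replicate 3 of K562 DMSO 2 were. The most negative log2 difference in these lists was -1.66, against -8.11 for UBE2C, which was chosen on these levels.

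With DNMT1i in K562, from 0 to 1 gene of each of these lists passed, in a comparison in which 6.47% of all genes rose and 2.38% fell. Counts this small in lists of 8 to 27 genes are not read as particular to the lists. Of the 14 core subunits 1 rose, ANAPC13 (53.1 ± 6.33 to 71.0 ± 4.51 CPM, log2 fold change 0.38 ± 0.10, SE, edgeR adjusted p = 0.0382). Of 8 coactivators and enzymes that start or oppose the chains 1 rose, USP44, a deubiquitinase of the checkpoint, which stayed under 1 CPM (0.185 to 0.715 CPM, edgeR adjusted p = 0.0311). Of 27 substrates 1 fell, CCNA2 (384 to 312 CPM, -0.34 ± 0.08, edgeR adjusted p = 0.0336), and of 26 mitotic genes 1 fell, the kinesin gene KIF4A (90.3 to 73.2 CPM, -0.34 ± 0.09, edgeR adjusted p = 0.0443). None of the 11 inhibitors or the 20 S phase genes passed by edgeR (2 and 5 at an unadjusted p under 0.05, and 0 and 0 by DESeq2). DESeq2 did not call USP44 (adjusted p = 0.113). The calls of ANAPC13, CCNA2 and KIF4A were lost without any 1 library other than replicate 3 of K562 DMSO, and that of USP44 without any other than replicate 2 or 3 of K562 DMSO (highest edgeR adjusted p = 0.184, 0.145, 0.155 and 0.109).

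The genes most often read as signs of mitosis gave no call in K562. CCNB1 measured 280 and 286 CPM (log2 -0.01 ± 0.08, 95% interval -0.16 to 0.14, edgeR adjusted p = 0.957), CDC20 130 and 122 CPM (-0.13 ± 0.09, edgeR adjusted p = 0.470) and FOXM1 64.9 and 52.4 CPM (-0.35 ± 0.12, edgeR adjusted p = 0.105). The list medians were below that of all genes (-0.00): -0.14 for substrates, -0.15 for other mitotic genes and -0.08 for S phase genes. One control library sets how many of these pass: without replicate 3 of K562 DMSO, 10 substrates, 11 other mitotic genes and 5 inhibitors fell, 2 substrates rose, and 3440 genes were called in all against 1214. With or without that library, 0 of the 26 other mitotic genes rose by edgeR, 0 by DESeq2 with all libraries.

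In HCT116 with DNMT1i, UBE2C stood at 86.4% of its DMSO level. Of the 27 substrates 25 fell and 0 rose, beside 27.9% and 33.8% of all genes (median -0.58, against 0.02 for all genes), among them PLK1 (114 to 55.2 CPM, -1.14 ± 0.08, SE, edgeR adjusted p = 2.07e-10), AURKB (61.3 to 30.7 CPM, -1.10 ± 0.09, edgeR adjusted p = 1.04e-09), CCNB2 (-1.01) and KIF22 (-0.87). CCNB1 fell from 224 to 170 CPM (-0.51 ± 0.08, edgeR adjusted p = 9.56e-06). Of 26 other mitotic genes 18 fell and 0 rose, led by FOXM1 (93.7 to 42.5 CPM, -1.24 ± 0.08, edgeR adjusted p = 4.22e-11), RACGAP1 (-0.94), KIF23 (-0.91) and MKI67 (-0.91), and of 20 S phase genes 17 fell and 2 rose, led by CDT1 (-1.504) and MCM7 (-0.91).

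Of 12 inhibitor and checkpoint genes tested in HCT116, 9 fell and 1 rose, with FBXO5 (EMI1) at -0.89, NDC80 at -0.81 and BUB1B at -0.60. The 1 that rose, MAD1L1, was near the floor, at 0.076 ± 0.066 CPM in DMSO and 1.341 ± 0.23 CPM with DNMT1i (SD, n = 3). Its mean was also between 0.0611 and 0.949 CPM in every K562, speckle and HT-CTCF group. NUSAP1, of the other mitotic genes, was between 0.0568 and 0.753 CPM in all 10 groups. Whether such counts give the true level of these transcripts was not tested. Of 14 core subunits 5 fell, 1 rose and 8 did not pass, beside 27.9% of all genes that fell and 33.8% that rose: ANAPC15 was at -0.59, ANAPC11 at -0.37 and ANAPC1 at -0.30, and CDC16 rose by 0.29. Of the 8 coactivators and enzymes 6 rose and 1, CDC20, fell (-0.29 ± 0.08, edgeR adjusted p = 0.00397). USP44 was listed at 0 in all 3 HCT116 DMSO libraries and at 1.67 CPM with DNMT1i, USP37 rose by 0.46 and USP7 by 0.41. FZR1 rose by 0.25 (edgeR adjusted p = 0.0381), a call that DESeq2 did not make (adjusted p = 0.0517) and that was lost without replicate 2 or replicate 3 of HCT116 DNMT1i (edgeR adjusted p = 0.153 and 0.0705) or replicate 2 of HCT116 DMSO (0.228).

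**Figure D4:**
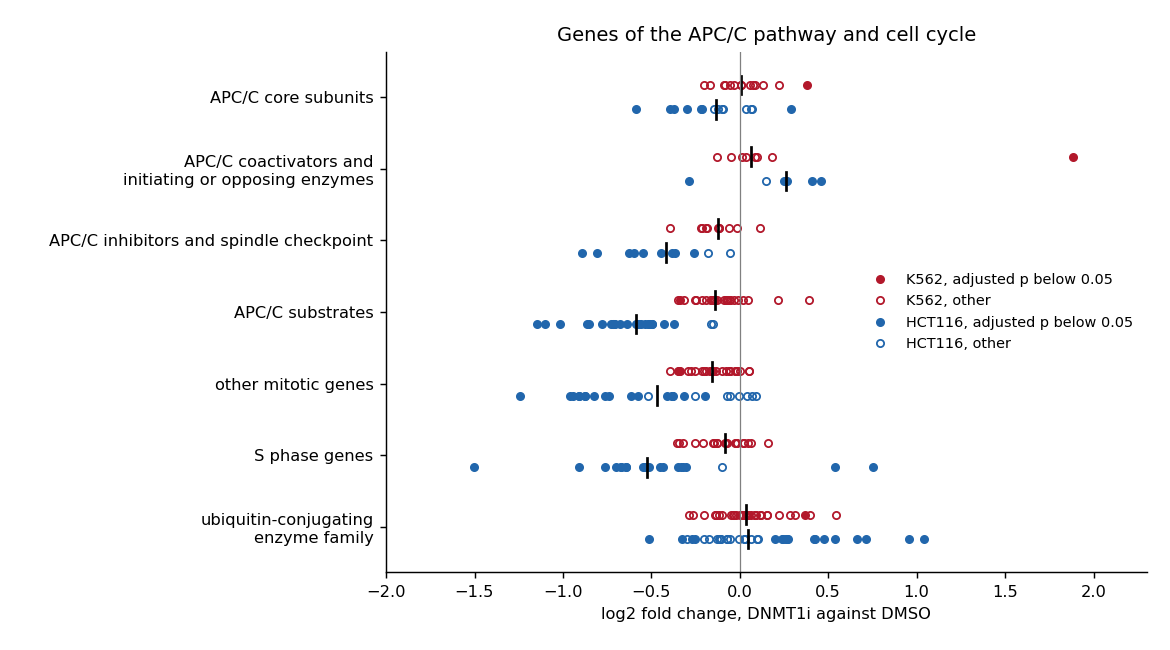
Fitted log2 fold change with DNMT1i of each gene of the 7 lists in K562 and in HCT116; each circle is a gene, filled where the adjusted p was below 0.05, and the vertical bar is the list median. Of the substrates, 25 filled circles lie below 0 in HCT116 and 1 in K562; USP44 and MAD1L1 in HCT116 lie beyond the right edge.

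The difference between the responses (K562 minus HCT116) was tested for the list genes in 1 fit of the 12 wild-type libraries, in which 14.1% of genes were higher and 15.7% lower. Of 27 substrates 18 had a higher response in K562 and 0 a lower one (median 0.50, against -0.01 for all genes), and of 26 other mitotic genes 12 were higher and 0 lower. FOXM1 differed by 0.91 ± 0.14 (SE, edgeR adjusted p = 6.05e-05), CCNB1 by 0.50 ± 0.11 (edgeR adjusted p = 0.0018) and AURKB by 0.97 ± 0.14 (edgeR adjusted p = 2.29e-05). CDC20 (0.17 ± 0.13, edgeR adjusted p = 0.352) and UBE2T (-0.05 ± 0.12, edgeR adjusted p = 0.815) did not pass. Of 20 S phase genes 10 were higher and 2 lower, of 12 inhibitors 3 and 1, of 14 core subunits 1 and 0, and of 8 coactivators and enzymes 0 and 3. The highest difference among the substrates was 1.04 and among the other mitotic genes 0.93, against 6.96 for UBE2C. UBE2C was chosen on its K562 response, so its place beside these genes is a description and not a result.

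With dTAG-13 in the speckle line, 4.67% of all genes passed, and 3061 of 14104 with the replicate number as a block. FZR1, the coactivator of late mitosis and G1, fell from 27.7 ± 1.32 to 14.9 ± 2.09 CPM (-0.89 ± 0.11, SE, edgeR adjusted p = 0.00258), and was the 1 coactivator or enzyme of 7 tested that passed. Of 27 substrates 3 fell (AURKB -0.59, ESPL1 -0.53 and CDCA3 -0.46) and 0 rose. Of 26 other mitotic genes 2 fell (KIF20A -0.39 and KIF2C -0.29) and MKI67 rose by 0.32. Of 20 S phase genes E2F1 (-1.01) and CDT1 (-0.48) fell, and of 34 E2 genes 2 fell. None of the 14 core subunits passed by edgeR (0 at an unadjusted p under 0.05, 0 by DESeq2), nor any of the 11 inhibitors (3 at an unadjusted p under 0.05, 1 by DESeq2). With the replicate block, which the deviations of same-numbered speckle libraries may call for, more genes passed. Then 7 substrates fell and 1 rose, 6 other mitotic genes fell and 1 rose, 12 E2 genes fell and 1 rose, 3 coactivators or enzymes fell and 1 rose, and 1 core subunit, 5 inhibitors and 4 S phase genes fell.

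In HT-CTCF after 1 day of DNMT1i, 2.48% of all genes passed without HaloPROTAC3 and 5.41% with it. Without HaloPROTAC3, FZR1 rose from 42.4 ± 4.44 to 59.1 ± 3.11 CPM (0.48 ± 0.10, SE, edgeR adjusted p = 0.00587), and KIFC1, of the substrates, rose by 0.39 (edgeR adjusted p = 0.0302). CDC25B rose by 0.28 and the E2 gene UBE2J1 fell by 0.36 on the log2 scale. With HaloPROTAC3, 0 of 27 substrates passed by edgeR (6 at an unadjusted p under 0.05), while MKI67 fell (-0.58, edgeR adjusted p = 9.24e-05) and CEP55 rose (0.29, edgeR adjusted p = 0.0204). CCNB1 was at -0.03 and 0.20 (edgeR adjusted p = 0.883 and 0.0736). Line and time differ from the HCT116 libraries at 3 days, and the difference between them was not tested.

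Among the tested E2 enzymes, the gap of UBE2C between the lines was the widest. UBE2C was chosen on these levels, so its rank is a description and not a result. The family list holds 37 genes besides UBE2C and UBE2S, of which 34 were tested; 15 were higher and 11 lower in K562 DMSO than in HCT116 DMSO, beside 38.1% and 41.2% of all genes. The next most negative log2 difference was that of UBE2E2 (0.803 ± 0.195 against 16.8 ± 0.54 CPM, -4.40, edgeR adjusted p = 7.4e-11), followed by UBE2Z (39.2 against 148 CPM, -1.94). UBE2L3 stood at the other end (498 against 105 CPM, 2.21), and UBE2T, an E2 of DNA crosslink repair that is also a cell cycle gene, was higher in K562 (91.2 ± 3.44 against 39.2 ± 1.79 CPM, 1.19 ± 0.09, edgeR adjusted p = 3.79e-08). UBE2E2 measured 1.20 CPM in K562 DNMT1i and did not pass (log2 fold change 0.54 ± 0.28, SE, edgeR adjusted p = 0.294).

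With DNMT1i, 1 of the 34 E2 genes rose in K562 and 0 fell. This was UBE2H, from 122 ± 16.9 to 161 ± 3.64 CPM (0.37 ± 0.10, SE, edgeR adjusted p = 0.0423), which fell in HCT116 (223 to 192 CPM, -0.33 ± 0.07, edgeR adjusted p = 0.000708). The K562 call was lost with the replicate block (edgeR adjusted p = 0.0974) and without any library but replicate 3 of K562 DMSO (0.0543 to 0.152). In HCT116 13 of the 34 E2 genes rose and 4 fell, beside 33.8% and 27.9% of all genes, led by CDC34 (1.04), UBE2B (0.96), UBE2A (0.72) and UBE2Q2 (0.67). The difference between the responses passed for 7 of the 34, beside 29.8% of all genes, 2 higher in K562 (UBE2H 0.70 and UBE2D4) and 5 lower. Of the family, UBE2C alone is among the 32 genes that met the off-on rule, which was modelled on UBE2C.

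**Figure D5:**
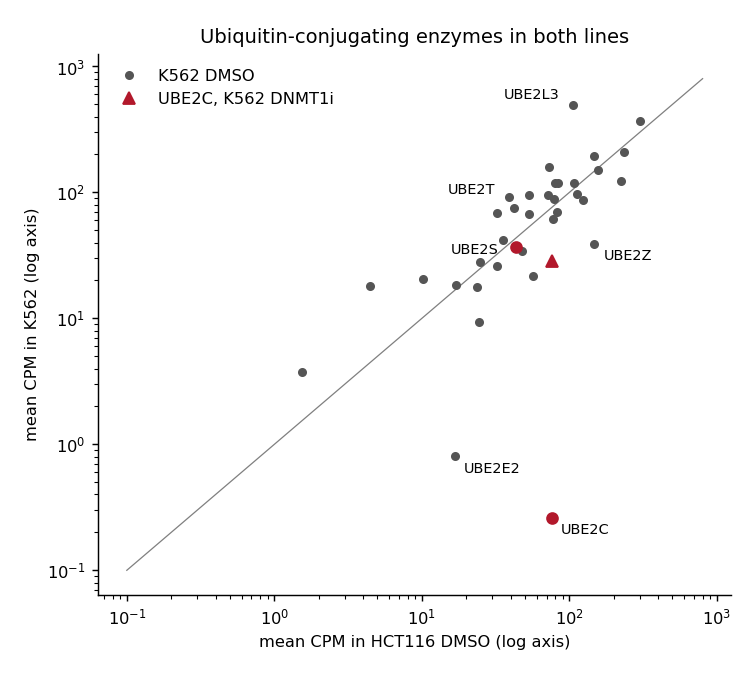
Mean CPM (n = 3) of each ubiquitin-conjugating enzyme gene in K562 DMSO (vertical, log axis) against HCT116 DMSO (horizontal, log axis), with a line where the levels are equal, UBE2C and UBE2S in red and a triangle for UBE2C in K562 DNMT1i. UBE2C at 0.261 CPM in K562 DMSO is furthest below the line, next is UBE2E2 at 0.803 CPM, and the triangle stands at 28.7 CPM.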

How the data were processed

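The deposited counts were whole numbers of deduplicated read pairs per gene and per exon bin; per the labels and the methods of the study, poly(A)-selected RNA was made into paired-end CORALL libraries. The submitters' processing notes name UMI-tools 1.1.1, cutadapt 2.7, STAR 2.6.0, HTSeq, DESeq2 1.28 and R 4.0.2, and hg38. The strand setting used for counting was not given in the sources used here. Reads assigned to no gene (17.1% to 23.6% of a library) were left out. The authors' fold changes and p-values, and 18 columns of exon-bin counts per sample beside them, were not used.

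CPM was the count per 1000000 assigned reads. Genes were filtered with filterByExpr, scaled by TMM and tested by quasi-likelihood in edgeR 4.0.16 (R 4.3.3, limma 3.58.1), with Benjamini-Hochberg adjustment over all genes at 0.05; exon bins were tested with diffSpliceDGE. Alternatives were relative log expression scaling, no filter, a replicate block, DESeq2 1.42.0, limma diffSplice and leaving out each library. The tests were checked on simulated data. Named genes were UBE2C, UBE2S, the marked cell cycle genes and, per list and comparison, the 4 with the smallest p; others were chosen after their values were seen. The members and lists were chosen with earlier results of these data known, and the planned HCT116 test of both members is not reported, since HCT116 DMSO levels chose them.

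Same-numbered libraries deviated together in the speckle line (r from 0.140 to 0.667) and between K562 and HCT116 DMSO (0.116 to 0.409). Libraries of different number ran from -0.608 to 0.532 and from -0.362 to 0.268, so the ranges overlapped. The main tests used the groups alone in every comparison, with no replicate block. The block was run as an alternative, and the replicate numbers may pair the libraries in these comparisons. No replicates were duplicates (lowest chi-square per degree of freedom 1.79). 1 erythroid marker of the list is not reported here, for a reason unrelated to its level, and enters no count.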

Additional observations from a re-analysis of the deposited data

Results flagged for a closer look

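UBE2C lay above every DMSO library in all 3 K562 DNMT1i libraries (log2 fold change 6.64) and lay below every DMSO library in all 3 HCT116 DNMT1i libraries; the difference between the lines was not tested, since the K562 response chose the gene.

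The DNMT1i response differed between the lines by edgeR's test of the difference for CCNB1 (0.50 on the log2 scale, K562 minus HCT116) and FOXM1 (0.91). By the same test the responses differed for 29.8% of all genes. They differed for 18 of 27 substrates, 12 of 26 other mitotic genes and 12 of 20 S phase genes. They also differed for 1 of 14 core subunits, 3 of 8 coactivators and initiating or opposing enzymes, 4 of 12 inhibitors and checkpoint genes and 7 of 34 genes of the E2 family. The counts for these last 4 lists lie near or below the share of all genes and are not results about those lists. The lists were chosen with earlier results of these data known.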

How the results depend on the processing

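UBE2C was lower with DNMT1i than with DMSO in HCT116 under every alternative run. The fitted UBE2C values that rest on 15 K562 DMSO reads moved when a library was left out, from 6.23 to 7.23 for K562 DNMT1i, from -8.69 to -7.69 for K562 against HCT116 DMSO and from 6.55 to 7.56 for the difference of responses. The mean UBE2C level scaled by TMM over 30 libraries was 31.4 CPM in K562 DNMT1i and 79.5 CPM in HCT116 DMSO, and by relative log expression 81.7 CPM in HCT116 DMSO. Without the filter on low counts, 1899 genes were called in K562, 1167 in the speckle line and 165 for the HT-CTCF interaction (DESeq2 called 141), and the signs turned of UBE2S with HaloPROTAC3 in DMSO (0.0094) and of the UBE2C interaction (-0.0216). limma called 11874 bins between K562 and HCT116 DNMT1i. DESeq2 called 3 core subunits and 2 E2 genes lower in HCT116, against 5 and 4 by edgeR. Without the filter and by DESeq2 the median of all genes shifted to 0.13 and 0.16 in HCT116 and to -0.12 and -0.20 for the difference of responses.

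The replicate block raised the speckle calls from 658 to 3061 genes and from 243 to 1334 bins, and UBE2S in the speckle line passed (0.24). In K562 against HCT116 DMSO it changed no call of a named gene. The numbers do not pair the other libraries; there the block ended the K562 calls of ANAPC13, USP44, CCNA2, KIF4A and UBE2H (edgeR adjusted p from 0.0645 to 0.125) and the HCT116 call of FZR1 (0.0507).

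With 1 library left out, calls ran from 756 to 3440 genes in K562, 179 to 1069 in the speckle line, 163 to 455 and 263 to 1055 for DNMT1i in HT-CTCF without and with HaloPROTAC3, and 0 to 238 for the interaction; bins ran from 751 to 3067 in HCT116 and from 91 to 389 in the speckle line. UBE2S with HaloPROTAC3 ran from -0.15 to 0.10 in DMSO and from -0.40 to -0.27 in DNMT1i, and the UBE2C interaction from -0.034 to 0.046. CCNB1 in K562 ran from -0.053 to 0.032, and the differences of response of FZR1 and UBE2T from -0.16 to 0.059 and from -0.14 to 0.037. The cause of these changes was not tested. At 3 libraries a group and a few UBE2C reads in untreated K562, counting error limits the size of the fold, and the depth of HT-CTCF was lowest.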
